A study of Sus scrofa with 5 samples.

Results

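Predicted miRNA loci found only in pig blastocysts (BLs) are described here. A locus was taken when the deposited table of miRNAs outside miRBase gave it a read count in a BL library and a dash in the libraries of ES-like cells, embryoid bodies (PEBs) and fetal fibroblasts (PFFs). These were 269 of 783 predicted loci, or 34.4%. Of the others, 285 loci had a prediction in 1 cultured library only and 229 in at least 2 cell types. A dash means that no prediction was made in that library and does not mean 0 reads.

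Small RNAs of 5 samples were sequenced, with 2 libraries of BLs (BL_1 and BL_2) and 1 library of each cultured cell type. The BLs were pools of parthenogenetic embryos, which develop from oocytes activated electrically and without sperm, and were collected on day 7. The ES-like cells were a line derived from BLs and grown on mouse feeder cells with stem cell factor and basic fibroblast growth factor. The PEBs were aggregates of these ES-like cells made in hanging drops without cytokines, so both share an origin, and the PFFs were cultured from mixed-breed fetuses.

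A miRNA is cut from a hairpin of RNA, and the enzyme Dicer releases a duplex of which 1 strand usually becomes the mature miRNA. Hairpins that lie close together are often made from 1 transcript, and such clusters are well known among miRNAs of early embryos. The program miRDeep2 predicts a hairpin from stacks of reads on the genome. Its score rises when reads lie where Dicer would leave the mature strand, the opposite strand and the loop, and a prediction is not by itself evidence of a miRNA.

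The libraries differed in depth. Reads of reported mature miRNAs numbered 113743 in BL_1 and 2782150 in BL_2, and from 6372500 in ES-like cells to 27071931 in PFFs. The columns were assigned by the submitters' labels, and a summary supplied with the study gives the totals of ES-like cells and PFFs the other way round. In these terms, 1 read equalled 8.79 reads per 1000000 mature reads (RPM) in BL_1 and 0.359 RPM in BL_2. The BL libraries carried many reads of ssc-miR-371-5p, a miRNA of early embryos and pluripotent cells, at 36925 (BL_1) and 823927 (BL_2), and the cultured libraries had 5 (PFFs), 8 (PEBs) and 197 (ES-like cells). Reads of ssc-miR-21, which is abundant in fibroblasts, numbered 14153426 in the column labelled PFF and 986772 in that of ES-like cells. Both miRNAs thus ran in the direction of the labels. The lowest counts that came with a prediction were 6 reads (BL_1), 7 (BL_2), 3 (ES-like cells), 3 (PEBs) and 2 (PFFs). Because the samples are bulk RNA, fewer cells of a type and less RNA per cell cannot be told apart.

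BL_2 carried most of the blastocyst-only loci. It held 262 of the 269, and BL_1 held 12. In BL_2 the blastocyst-only loci were 74.4% of the 352 predicted loci, and in BL_1 they were 27.3% of 44. The share of loci predicted in 1 cell type only was 50.6% for PFFs, 27.5% for PEBs and 23.7% for ES-like cells. By aligned reads, of which the study gives totals, BL_2 was the deepest library, and PFFs, PEBs, ES-like cells and BL_1 followed in this order. The shares of BL_2, PFFs, PEBs and ES-like cells fell in the same order, and that of BL_1 lay near the share of PEBs. If the aligned totals of ES-like cells and PFFs were exchanged in the summary as the mature totals are, ES-like cells would stand before PEBs and PFFs after them, and the shares would not fall in that order. By mature reads the order of the libraries was another, with PFFs first and BL_2 below the cultured libraries. The part of depth in these shares was not tested. Loci were chosen by these same values, so no test was made of them.

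Near the edge of the rule, the blastocyst-only locus with the fewest reads had 6, in BL_1. Just outside it was chr6:54613891-54613954, with 23 reads in BL_2 and 7 in PFFs. The locus chr7:81547144-81547195 had 40 reads in BL_2 and 9 in ES-like cells, and was therefore left out. Both counts in cultured cells were under 10 reads, as were those of 78 loci predicted in PFFs and 53 in ES-like cells.

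Most blastocyst-only loci had few reads. In BL_2 the counts ran from 7 to 316275 with a median of 13.0 (quartiles 10.0 and 21.8), and 187 loci (71.4%) had under 20 reads. Only 21 loci of BL_2 reached 100 reads and 9 reached 1000. The 90 loci of BL_2 that were also predicted in a cultured library had a median of 83.5 reads. In BL_1 the 12 blastocyst-only loci ran from 6 to 3605 reads with a median of 78.5, against a median of 62.0 for its 32 other loci. Loci predicted in 1 cultured library only had medians of 11.0 reads (ES-like cells), 13.0 reads (PEBs) and 11.0 reads (PFFs), close to the median in BL_2.

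**Figure D1:**
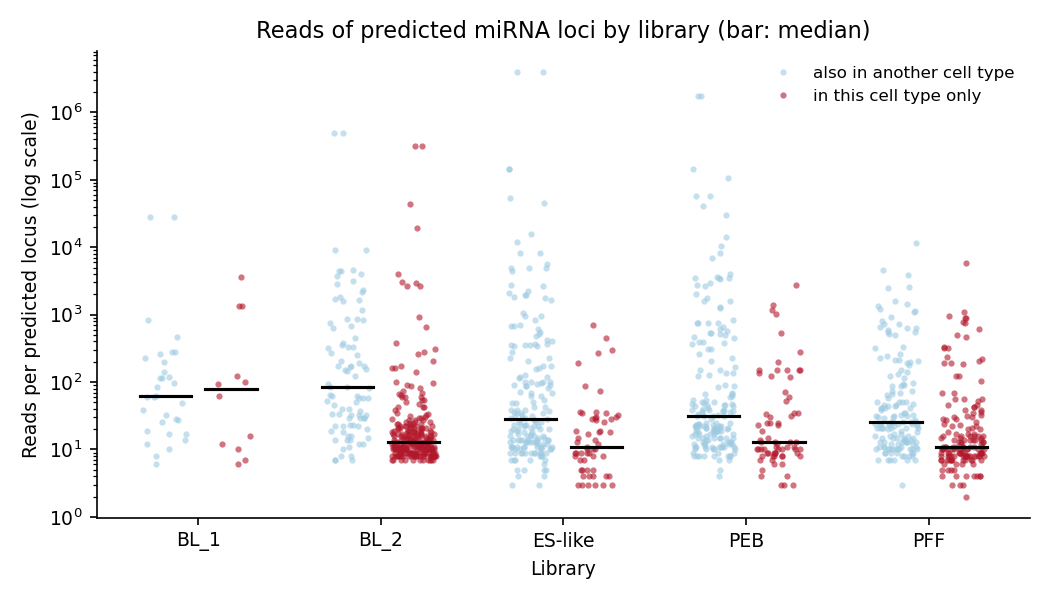
Reads per predicted locus (log scale) in each of the 5 libraries, with 1 point per locus and bars at medians. Loci predicted in that cell type only are red and the others blue, and the red points of BL_2 crowd around a median of 13.0 reads with a few loci above 10000.

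A few loci held nearly all reads. The blastocyst-only loci of BL_2 summed to 718663 reads, which was 40.3% of all reads at predicted loci of that library and equal in size to 25.8% of its mature reads. The 10 most read held 99.0% of this sum and left 7023 reads to the rest. In BL_1 the sum was 6740 reads, equal in size to 5.93% of its mature reads, and the most read locus alone held 53.5%.

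The most read loci of BL_2 were chr8:115200392-115200451 and a scaffold locus of the same length, GL894213.2:15693-15752, each with 316275 reads. Positions are on Sscrofa10.2, the build of the deposited coordinates. Both were 60 bases long, and their scores were 2.0 and 2.1. With the scaffold locus left out, the sum in BL_2 was 402388 reads, equal in size to 14.5% of the mature reads. Neither was predicted in BL_1.

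Next in BL_2 came chr7:41355712-41355767 with 43466 reads and a score of 1.8, without a prediction in BL_1. The locus chr8:115200210-115200271 had 19486 reads in BL_2 and a score of 9935.7, the highest of all blastocyst-only loci. The locus chr7:22174545-22174609 had 1350 reads in BL_1 and 3970 in BL_2. Of these, only the last was predicted in both BL libraries.

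The remaining members of the top 10 in BL_2 had from 927 to 3013 reads. The 927 reads lay at chr7:22953700-22953776, and above it were chr8:77043338-77043403 with 3013 reads, chr6:52739138-52739198 with 2951, chr4:63051707-63051770 with 2659 and chr17:41956954-41957005 with 2618. The scores were 1532.6 for chr8:77043338-77043403 and 1505.6 for chr6:52739138-52739198, whereas they were 1.6 for chr4:63051707-63051770 and 2.0 for chr17:41956954-41957005. Similar counts thus came with widely different scores.

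In BL_1 the most read locus was chr9:52977572-52977666 with 3605 reads and a score of 1.6. It was followed by GL895275.1:7936-8000 with 1352 reads and chr7:22174545-22174609 with 1350, at scores of 686.7 and 685.3. Both are 65 bases long, and the counts differ by 2 reads. Of these 3 loci, only chr7:22174545-22174609 was predicted in BL_2 too.

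Lower in BL_1, chr16:46373671-46373723 had 101 reads and a score of 0, chr6:144385168-144385258 had 94 reads and a score of 21.8, and chr13:6657216-6657292 had 63 reads and a score of 0. The locus chr5:100312265-100312324 had 16 reads with a score of 2.1, and GL892875.2:42699-42776 had 6 reads with a score of 0. None of these 5 was predicted in BL_2.

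Scores of the blastocyst-only loci were mostly low. Taking the higher score of the BL libraries, the median was 1.6. Scores under 1 were given to 85 loci, 20 of them at 0, while 159 lay from 1 to 3.3, 5 lay from 5 to under 10, and 20 reached 10. The threshold of 10 fell in a sparse stretch. Just under it were chr14:81126533-81126597 with a score of 7.0 on 11 reads and chr2:20324637-20324698 with a score of 6.1 on 9 reads. Just above it were JH118641.1:17407-17486 with 12.0 on 35 reads and chr14:143587795-143587859 with 12.6 on 22 reads.

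Within BL_2, 18 of 262 blastocyst-only loci (6.87%) had a score of at least 10, against 31 of 90 loci (34.4%) that were also predicted in a cultured library. The median scores were 1.6 and 2.6. In BL_1 the shares lay close together, at 4 of 12 blastocyst-only loci (33.3%) and 12 of 32 other loci (37.5%). Scores of at least 10 were more frequent at higher reads, so the loci of BL_2 were also set side by side within classes of reads. At 7 to 19 reads, 187 blastocyst-only and 17 other loci had median scores of 1.2 and 2.2, and no locus of either kind reached 10. At 20 to 99 reads, 6 of 54 (11.1%) and 6 of 31 (19.4%) reached 10. At 100 reads or more the shares were 12 of 21 (57.1%) and 25 of 42 (59.5%), with medians of 69.2 and 98.7. The gap over all loci of BL_2 was thus wider than the gap among its loci of at least 100 reads.

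The score also split the well-read loci into separate sets. Among the 24 blastocyst-only loci with at least 100 reads in a BL library, 13 had scores of at least 10, and the other 11 had scores of at most 2.8. No score of these 24 lay between 2.8 and 44.9. In the 20 loci with a score of at least 10, the score per read, in the library with more reads of the locus, ranged from 0.232 to 0.60 with a median of 0.510, whereas in the 11 it was at most 0.0144. By reads, the sets had unequal parts. The 18 high-score loci of BL_2 held 32334 reads, or 4.50% of the blastocyst-only reads, and 5 low-score loci with at least 1000 reads held 94.8%. With the scaffold locus of 316275 reads left out, these shares were 8.04% and, for the 4 low-score loci that remained, 90.7%. In BL_1 the 4 high-score loci held 2920 reads, or 43.3%.

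**Figure D2:**
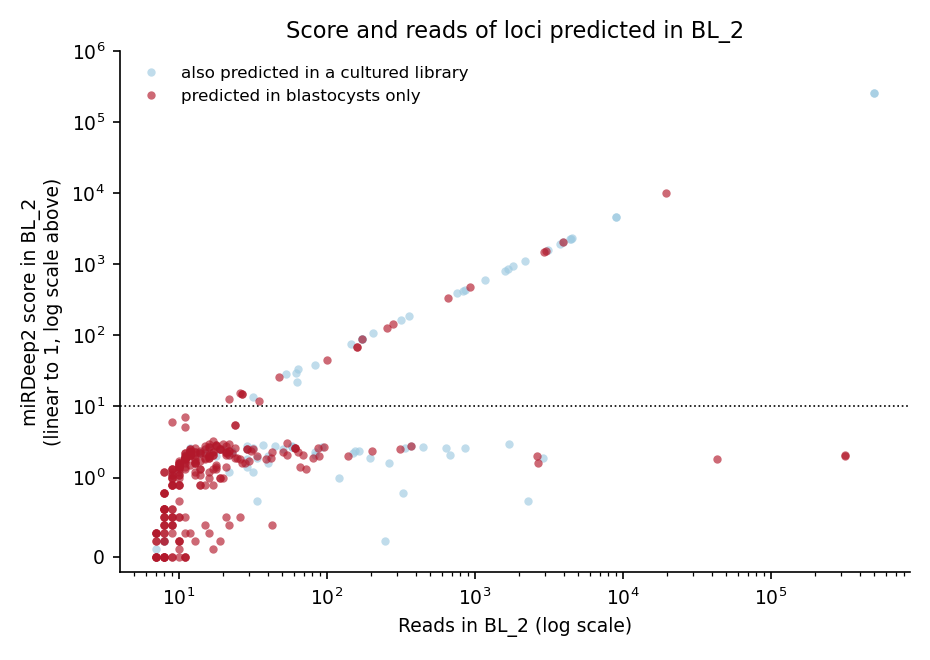
miRDeep2 score (linear to 1, log scale above) against reads (log scale) for loci predicted in BL_2, with 1 point per locus and a dotted line at a score of 10. Blastocyst-only loci (red) and loci also predicted in a cultured library (blue) both fall on a rising band or stay low, and the blastocyst-only loci with the most reads have scores of about 2.

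Other high scores in BL_2 were 473.8 for chr7:22953700-22953776 with 927 reads and 335.9 for chr12:52441127-52441174 with 666 reads. The locus chr12:23443868-23443922 had 283 reads and a score of 146.4, and chr2:102035039-102035131 had 257 reads and a score of 126.9. None of them was predicted in BL_1, where at an equal share of mature reads chr7:22953700-22953776 would have had 37.9 reads, or 113 by aligned reads.

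The BL libraries shared few of these predictions. Of the 269 loci, 5 were predicted in both (1.86%, 95% exact binomial interval 0.606 to 4.28%, which takes loci as independent although some may be copies), 7 in BL_1 only and 257 in BL_2 only. This was 5 of 12 in BL_1 (41.7%, 15.2 to 72.3%) and 5 of 262 in BL_2 (1.91%). Among loci that were also predicted in a cultured library, 31 of 32 in BL_1 (96.9%) were predicted in BL_2, and 31 of 90 in BL_2 (34.4%) in BL_1. The requirement that no cultured library has a prediction enters both figures, so the difference was not tested.

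Depth was set beside these counts. If each locus of BL_2 had the same share of mature reads in BL_1, 19 of the 262 would have reached the 6 reads that were the lowest count with a prediction there, and 4 of the 19 were predicted. With equal shares of aligned reads, 35 would have reached it and 5 of them were predicted. For chr8:115200392-115200451 the equal share was 12930 reads in BL_1, for chr7:41355712-41355767 it was 1777 and for chr8:115200210-115200271 it was 797. By aligned reads these were 38612, 5306 and 2379 reads. In the other direction, all 12 loci of BL_1 would have reached 7 reads in BL_2, and 5 were predicted. An equal share of chr9:52977572-52977666 was 88178 reads in BL_2, and one of GL895275.1:7936-8000 was 33070, or 29529 and 11074 by aligned reads. Reads that lay at these places without a prediction are not given in the table.

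Levels could be compared at the 5 loci predicted in both libraries. At chr7:22174545-22174609 the level was 11869 RPM in BL_1 and 1427 RPM in BL_2, a log2 ratio of 3.06 (95% exact interval 2.97 to 3.15, which covers counting error only). The scores there were 685.3 and 2021.3. At chr6:98971585-98971654 it was 106 RPM on 12 reads and 23.7 RPM on 66 reads, a log2 ratio of 2.15 (1.13 to 3.05), with a score of 1.4 in each. Both loci were higher in BL_1.

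The other 3 lay nearer to equal levels per mature read. At chr6:52739138-52739198 the counts were 124 in BL_1 and 2951 in BL_2, or 1090 and 1061 RPM, a log2 ratio of 0.04 (-0.23 to 0.30). At chr1:267025084-267025153 they were 10 and 204, or 87.9 and 73.3 RPM, a log2 ratio of 0.26 (-0.82 to 1.17). At chrX:136189052-136189109 they were 7 and 313, or 61.5 and 113 RPM, a log2 ratio of -0.87 (-2.20 to 0.19). On this scale the intervals of these 3 loci include 0.

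Thus 2 of the 5 differed by more than 2-fold between the BL libraries. For reported miRNAs with at least 10 reads in each library the same was seen for 22 of 120 (18.3%), with a median log2 ratio of -0.03, an SD of 0.77 and a range from -2.21 to 2.20. For the 31 other predicted loci of both libraries it was 11 (35.5%), with a range from -0.65 to 3.10. The ratio of 3.06 at chr7:22174545-22174609 was above the range of the reported miRNAs and within that of the other predicted loci. When reads were taken per 1000000 aligned reads, a denominator that includes RNAs other than miRNAs, every log2 ratio, those of the reported miRNAs included, was lower by 1.58. The ratio was then 1.48 (1.39 to 1.57) at chr7:22174545-22174609 and 0.57 (-0.45 to 1.47) at chr6:98971585-98971654. It was -1.54 (-1.81 to -1.28) at chr6:52739138-52739198, -1.32 (-2.40 to -0.41) at chr1:267025084-267025153 and -2.45 (-3.78 to -1.39) at chrX:136189052-136189109. On that scale 4 of the 5 differed by more than 2-fold, 3 of them lower in BL_1, and so did 94 of the 120 reported miRNAs (78.3%), all of them lower in BL_1, and 17 of the 31 other predicted loci (54.8%). The count of 4 is therefore no result about the blastocyst-only loci. Of the 5, only chr7:22174545-22174609 had an interval above 0 on both scales.

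**Figure D3:**
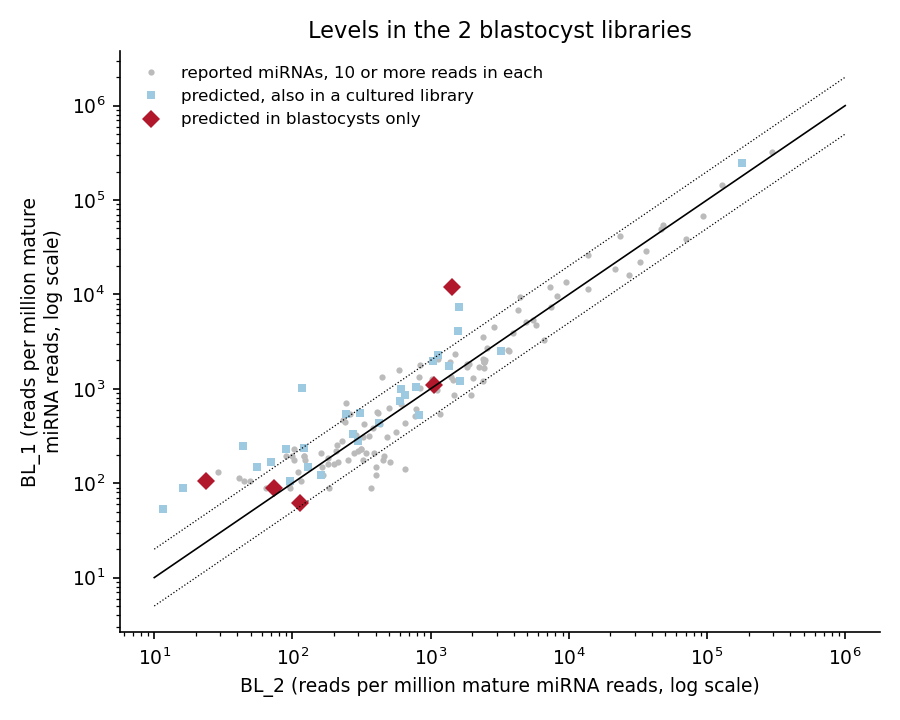
Level in BL_1 against level in BL_2 (RPM, both axes log scale), with 1 point per locus or miRNA, a solid line at equality and dotted lines at 2-fold. Of the 5 blastocyst-only loci predicted in both (red diamonds), 2 lie above the upper dotted line.

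Blastocyst-only loci rarely lay beside one another. With neighbours joined at gaps of up to 10 kb, 7 of the 269 (2.60%) fell into 3 clusters, of at most 3 loci. Over all 783 loci there were 22 clusters with 66 loci (8.43%), and the largest had 11. Taken alone in the same way, loci of 1 cultured library gave 6 clusters with 16 loci (5.61%) and loci of at least 2 cell types gave 12 clusters with 32 loci (14.0%). None of the 269 overlapped a locus of a cultured library, but overlapping predictions can share the same row, so this tells little. Of the 269, 10 lay within 10 kb of a locus of a cultured library. The like count was not made for the other classes, so whether this is many or few was not tested.

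The most read cluster was on chromosome 8, where 5 predicted loci lay within 671 bases. The first, chr8:115200079-115200140, was predicted in every library, with 27970 reads (BL_1), 497400 (BL_2), 3980216 (ES-like cells), 1751630 (PEBs) and 24 (PFFs). Next came the blastocyst-only loci chr8:115200210-115200271 and chr8:115200392-115200451 with 19486 and 316275 reads in BL_2. The fourth, chr8:115200553-115200622, had 283 and 9049 reads in the BL libraries, 57516 reads in PEBs and 145229 in ES-like cells, and the last, chr8:115200689-115200749, had 3366 reads in PEBs and 8312 in ES-like cells. ES-like cells and PEBs therefore had many reads on both sides of the blastocyst-only loci. In BL_2, chr8:115200210-115200271 had 3.92% of the reads of the first locus, and chr8:115200392-115200451 had 63.6% of them and 35.0 times those of the fourth.

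A similar arrangement stood on scaffold GL894213.2, with 3 predicted loci within 542 bases. There GL894213.2:16004-16065 carried the same counts as the first locus of the chromosome 8 cluster in every library, and GL894213.2:15524-15591 had 283 and 9049 reads in the BL libraries, 57507 in PEBs and 145183 in ES-like cells. The blastocyst-only locus GL894213.2:15693-15752 lay between them. Its count in BL_2 and the BL counts of both neighbours were thus also present on chromosome 8. For GL894213.2:15524-15591 the counts in ES-like cells and PEBs were close to, but not the same as, the 145229 and 57516 of chr8:115200553-115200622.

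On chromosome X, 6 predicted loci lay within 4349 bases, and 3 of them were blastocyst-only. These were chrX:136187807-136187867 with 27 reads in BL_2 and a score of 1.6, chrX:136189052-136189109 with 7 reads in BL_1 and 313 in BL_2, and chrX:136189554-136189613 with 9 reads in BL_2 and a score of 1.0. Their neighbour chrX:136188532-136188586 had 197 reads (BL_1), 3786 (BL_2), 5 (ES-like cells), 48 (PEBs) and 7 (PFFs). The blastocyst-only locus chrX:136189052-136189109 held 3.55% of that neighbour's reads in BL_1 and 8.27% in BL_2. The other neighbours, chrX:136185265-136185322 and chrX:136186285-136186342, had 1168 and 2178 reads in BL_2 and at most 31 in any cultured library. Here, unlike on chromosome 8, the loci beside them had few reads in cultured libraries.

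**Figure D4:**
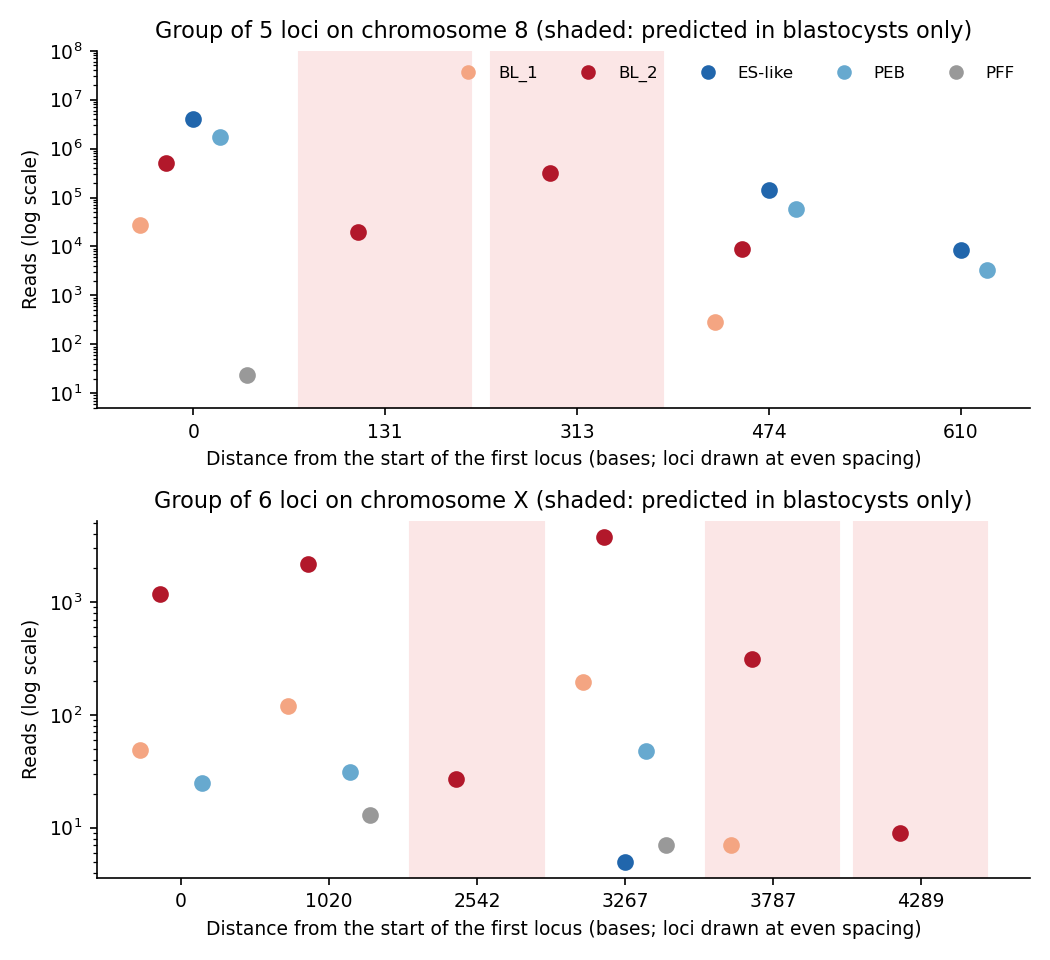
Reads (log scale) at the 5 predicted loci of the chromosome 8 cluster (top) and the 6 of the chromosome X cluster (bottom), with loci in order of position, 1 point per library and none where the table has a dash. On chromosome 8 the shaded blastocyst-only loci, with 19486 and 316275 reads in BL_2, lie between loci with up to 3980216 reads in ES-like cells, and on chromosome X the cultured libraries have at most 48 reads at any locus.

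The last cluster was a pair on chromosome 9, chr9:57824500-57824556 and chr9:57829962-57830018, with 16 reads in BL_2 and a score of 1.9 each. A neighbour of another kind was seen on chromosome 12. There chr12:23443868-23443922, with 283 reads in BL_2, lay 3667 bases from chr12:23440145-23440200, which had 319 reads in BL_2 and 39 in PFFs, and the scores were 146.4 and 164.6. Fewer reads lay at chr12:22358247-22358321, with 13 reads in BL_2 and a neighbour at 1029 bases that had 8 reads in PEBs. The highest-scored chromosome 8 locus outside the cluster, chr8:77043338-77043403, had blastocyst-only loci at 19.4 kb with 73 reads and at 76.0 kb with 10 reads, beyond the 10 kb used here.

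Many rows carried equal counts. Of the 204 blastocyst-only loci with at least 10 reads, 161 matched another row of the table in all of their counts and dashes. Of these, 123 had under 20 reads, where few different counts are possible, and the largest set was 27 loci at 10 reads. Nearly all blastocyst-only loci (264) had a count in 1 library only, so for them a single equal count made a match. A locus predicted in several libraries had to match in each of them. The like share is not given here for the other classes, so whether 161 of 204 is many was not tested. Of the 24 blastocyst-only loci with at least 100 reads, 4 shared their counts with another row. These were the chromosome 8 and scaffold loci with 316275 reads, and chr2:144217722-144217776 and chr2:144299839-144299893 with 161 reads each. The chromosome 2 loci both scored 69.2 and lay 82.1 kb apart. None of the 5 loci predicted in both BL libraries shared its counts with another row.

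Few pairs of equal counts also had equal lengths and scores within 0.1 of each other. Of 1721 pairs of blastocyst-only loci with the same counts, 43 met this rule, which was chosen after the values were seen (2.50%), and of the 121 such pairs on 1 chromosome, 16 did (13.2%). The 43 pairs held 68 blastocyst-only loci in 31 sets, and counting each set once left 232 loci. Of the pairs, 16 lay on 1 chromosome, from 5.4 to 297.0 kb apart with a median of 137.9 kb, 18 joined a chromosome and a scaffold, and 9 joined different chromosomes. An example is the set of chr2:156771710-156771772, chr2:156907080-156907142 and JH118582.1:99962-100024, each with 61 reads and a score of 2.6. The hairpin sequences were not analysed here, so whether such rows are copies of 1 sequence was not tested.

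Counts of blastocyst-only loci also recurred at rows that were predicted in cultured cells. The locus chr7:22174545-22174609, with 3970 reads and a score of 2021.3 in BL_2, had a counterpart of the same length at chr7:24380512-24380576, with 3970 reads and a score of 2021.4 in BL_2 and 10342 reads in PEBs. The locus JH118468.1:11859-11926, with 173 reads and a score of 89.9, shared its BL_2 count, and its score within 0.1, with 3 rows of chromosome 4, of which chr4:110277090-110277158 had 17 reads in PEBs and 50 in PFFs. The locus JH118682.1:307-389, with 374 reads and a score of 2.8, shared both with chr4:1220244-1220307, which had 21 reads in PFFs, 40 in PEBs and 16 in ES-like cells. In all, 3 of the 24 loci with at least 100 reads had such a row, but only chr7:22174545-22174609 had one of equal hairpin length. The hairpins in BL_2 had 68 bases at JH118468.1:11859-11926 and 65 at its 3 rows. They had 83 bases at JH118682.1:307-389 and 64 at chr4:1220244-1220307.

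The loci lay on most chromosomes. On chromosomes there were 244 (90.7%), and 25 lay on 25 different unplaced scaffolds, close to the 701 of 783 (89.5%) on chromosomes among all predicted loci. Chromosomes 1 and 2 carried 27 each, chromosome 9 carried 18 and chromosomes 8 and 13 carried 16. As a share of all predicted loci of a chromosome, blastocyst-only loci were 52.9% on chromosome 15 (9 of 17), 51.6% on chromosome 8 (16 of 31) and 50% on chromosome 17 (12 of 24), against 18.2% on chromosome 3 (8 of 44) and 8.33% on chromosome 10 (1 of 12). On chromosome X they were 13 of 52 (25%). No predicted locus of any class lay on the Y chromosome or in the mitochondrial genome.

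**Figure D5:**
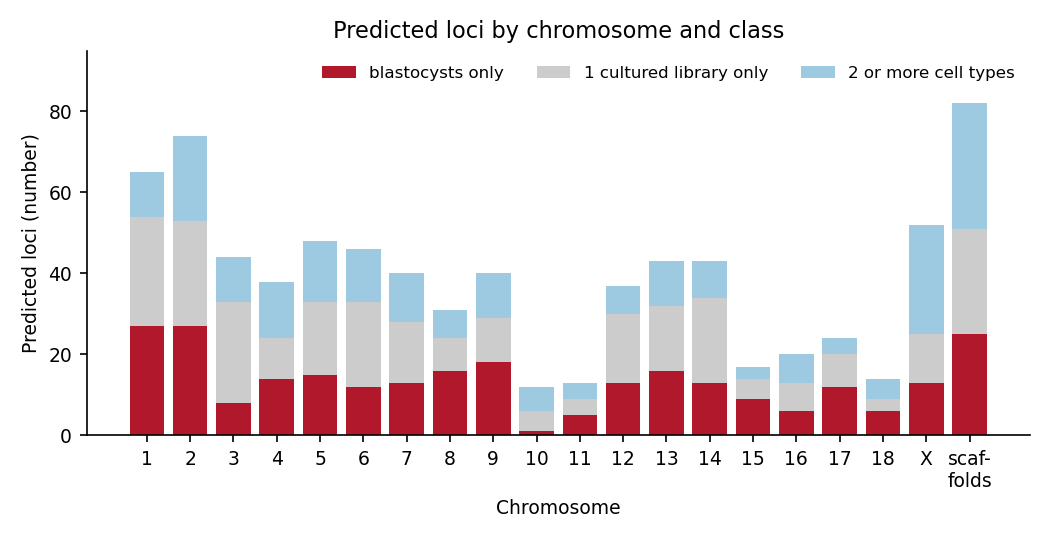
Number of predicted loci on each chromosome and on unplaced scaffolds, stacked by class (blastocysts only, 1 cultured library only, at least 2 cell types). Blastocyst-only loci (red) run from 1 on chromosome 10 to 27 on chromosomes 1 and 2.

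Counted by reads, the spread over chromosomes was different. Of the blastocyst-only reads in BL_2, 339195 lay on chromosome 8, 317146 on scaffolds and 48547 on chromosome 7. Of the scaffold reads, 316275 were those of GL894213.2:15693-15752, which had the same count as chr8:115200392-115200451. The 25 scaffold loci included 21 with under 100 reads, and 14 of the 25 were in a pair of equal count and length with scores within 0.1. The hairpins predicted at blastocyst-only loci in BL_2 were 40 to 95 bases long with a median of 67, and those predicted in BL_2 at its other loci were 40 to 88 bases long with a median of 62.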

How the data were processed

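Small RNA libraries of BLs (2 libraries), ES-like cells, PEBs and PFFs (1 each) were grouped by the submitters' labels. The authors trimmed reads with cutadapt 1.10, aligned them with Bowtie 1.1.1 to Sscrofa10.2 (Ensembl release 72) and used SAMtools 1.2 and HTSeq 0.6.1p1, as the submitters' processing notes list. They separated reported miRNAs and predicted loci with miRDeep2. Whether a read that fits several places was counted at each is not given in the sources used here. The deposited table of predicted loci holds, for each library, a read count without normalization and a miRDeep2 score.

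Of the deposited cells, 33 held 2 counts of overlapping predictions (6 of them at blastocyst-only loci), and the larger was used with its score. 1 of 784 rows had no count and was left out. Levels are counts per 1000000 of the summed deposited counts of reported mature miRNAs in the library. Since a dash is not a count of 0 and the loci were chosen on their counts, no count model was fitted and no p-value was computed. Ratios have exact binomial 95% intervals over reads, which cover counting error alone, since amplified reads do not stand for separate molecules. Shares of loci predicted in both BL libraries have such intervals over loci, taken as independent. Nothing in the labels says whether the BL pools came from separate collections of oocytes.

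Named loci are the 10 most read in each BL library, those in both, the 10 highest scores, members of clusters of at least 3 loci, sets of equal counts with at least 100 reads and loci nearest a score of 10. Others were chosen after their values were seen. The loci, lists and thresholds were chosen with earlier results of these data known. Alternatives were read and score minimums, cluster distances, equal rows counted once and the omission of each BL library. Totals of aligned reads, equal length and scores within 0.1 for equal rows, leaving out loci that repeat a row of cultured cells and leaving out the scaffold locus of equal count were chosen after seeing the data. The joining of clusters, the search for rows of equal counts and the counting of equal rows once were tested on simulated loci. Neither hairpin sequences nor gene annotation were analysed here. Scripts ran in Python 3.11.15 with pandas 2.3.3, numpy 2.4.6, matplotlib 3.10.9 and scipy 1.17.1.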

Additional observations from a re-analysis of the deposited data

How the results depend on the processing

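The 269 blastocyst-only loci fell to 24 with a minimum of 100 reads, 25 with a score of at least 5, 20 with a score of at least 10 and 69 with rows of equal counts counted once. They were 12 to 262 when either BL library was left out, and BL_1 alone gave the 12. Loci with a score of at least 10 numbered 20, or 184 at a threshold of 1, and 4 to 18 with either BL library left out. The 3 clusters became 7 at 50 kb, 1 with equal rows counted once, and 0 to 3 with either BL library left out. The 244 loci on chromosomes became 63 with equal rows counted once and 10 to 239 with either BL library left out. The 161 loci with equal counts became 4 at 100 reads and 68 with equal length, scores within 0.1 and no minimum of reads. Of the reads of BL_1, the 10 most read loci held 99.8% and the most read locus alone 53.5%. For BL_2 these shares were 99.0% and 44.0%, with the scaffold locus of equal count in the sum. Without that scaffold locus, chr8:115200392-115200451 held 316275 of 402388 reads.

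The median log2 ratio of BL_1 to BL_2 over the 5 loci predicted in both was 0.26 per 1000000 mature reads, 1.21 with at least 10 reads in each library and -1.32 per 1000000 aligned reads. Its sign therefore depends on the denominator, while chr7:22174545-22174609 was higher in BL_1 on both. The high-score loci of BL_2 held 4.50% of its blastocyst-only reads, or 8.04% without the scaffold locus of equal count. The lowest count with a prediction in BL_1, 6 reads, corresponded to 52.8 RPM, and that in BL_2, 7 reads, to 2.52 RPM. The counts at places without a prediction are not in the table, so absence from cultured cells cannot be read from it. No paired analysis was possible because the cultured cell types have 1 library each, so that no groups share 2 replicate numbers.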
